A study of Mus musculus with 17 samples.

Results

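Btnl9, Rgcc and Cyyr1 are 3 genes whose transcripts fell steeply in mouse pancreatic islets during culture. They were selected by symbol among 18193 measured genes because of those falls, so their differences from 0 h are given as a description, with no test. The platform's annotation paired 6 of the 45037 probe sets with 1 of these symbols, 2 for each gene, and all 6 are described. The islets, small clusters of endocrine cells threaded by capillaries, came from C57BL/6 mice; each of 6 batches pooled the islets of 4 mice and was divided into portions, which were kept in F12K medium containing 10% serum and taken at 0, 24 and 48 h. No other treatment was given, and expression was read on 1 single-colour Affymetrix GeneChip array per portion. Of the 17 arrays, 5 represent islets at 0 h, 6 islets at 24 h and 6 islets at 48 h, since batch 5 is without a 0 h portion in what was analysed here. Each replicate is a separate islet pool, and replicates with the same number share a batch.

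Btnl9 encodes butyrophilin-like 9, a membrane protein of the immunoglobulin superfamily related to the butyrophilins and the B7 ligands of T cells. Rgcc, the regulator of cell cycle, was first described as response gene to complement 32. Its product binds the mitotic kinase CDK1, and in endothelial cells the gene responds to hypoxia and to TGF-beta. Cyyr1 encodes a small membrane protein rich in cysteine and tyrosine, related to the Shisa-like proteins, whose function is poorly known. Transcripts of all 3 genes are found in endothelial cells, which line blood vessels, and Btnl9 and Rgcc are used as markers of capillary endothelium in mouse tissues. In the living pancreas the islet capillaries are dense and fenestrated. In culture no blood flows through them.

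The bases just before the annotated transcript starts of the 3 genes are shown as a description. The genes were selected for their falls, and the motifs were chosen with these sequences in view, so no shared control is read from them. The sequences were taken from RefSeq (GRCm38.p6), which listed 1 promoter for each gene, and all 3 genes lie on the minus strand. Each sequence is written 5′ to 3′ on the strand of its gene, and capitals mark AGGAAG or its reverse CTTCCT, a core motif of ETS transcription factors such as ERG and FLI1, which act in endothelium. For Btnl9 (chr11:49187090-49187339) and Rgcc (chr14:79301636-79301885) the 250 bases before the start are given. For Cyyr1 only the 30 bases around the motif (chr16:85550518-85550547) are given, since its window lies inside the annotated gene, behind the start of another transcript.
Btnl9: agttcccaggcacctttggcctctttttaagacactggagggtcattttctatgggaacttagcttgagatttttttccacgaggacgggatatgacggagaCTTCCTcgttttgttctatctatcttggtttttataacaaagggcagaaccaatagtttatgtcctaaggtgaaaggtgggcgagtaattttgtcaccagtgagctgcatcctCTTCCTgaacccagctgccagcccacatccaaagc
Rgcc: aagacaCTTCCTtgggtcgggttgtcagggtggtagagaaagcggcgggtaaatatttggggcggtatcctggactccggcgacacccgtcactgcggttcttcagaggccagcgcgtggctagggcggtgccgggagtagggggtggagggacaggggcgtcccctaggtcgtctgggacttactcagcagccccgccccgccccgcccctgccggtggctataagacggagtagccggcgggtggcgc
Cyyr1: actcagaagttcCTTCCTgctggagccaag

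The 3 windows of 250 bases differed in base composition. G and C made up 45.6% of the Btnl9 window, 66.8% of the Rgcc window and 55.6% of the Cyyr1 window, against a median of 52.4% over 32851 promoters. The motif AGGAAG, searched on both strands, matched 2 times before Btnl9, 1 time before Rgcc and 1 time before Cyyr1. It is common, as 29.5% of all promoters held it in the same window. The GC box GGGCGG matched 5 times before Rgcc and 0 times before Btnl9 and Cyyr1, and 32.7% of promoters held it. The KLF motif CACCC matched 4 times each before Rgcc and Cyyr1 and 0 times before Btnl9 (52.0% of promoters). The GATA motif GATAAG (6.55% of promoters), the AP-1 motif TGANTCA (6.75%) and the hypoxia motif ACGTG (16.6%) matched none of the 3. The TATA box letters TATAAA matched before Btnl9 only (12.4%), 118 bases before the start and on the opposite strand. The letters TATAAG, seen near the end of the Rgcc window, were not searched. The SOX motif ACAAT matched before Cyyr1 only (27.7%), and the short ETS core GGAA before all 3 (93.4%). The long ETS motif contains the short one.

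The arrays had medians between 3.47 and 3.57 on the log2 scale of the deposited values, and the median over the table was 3.52. No detection call accompanied the values, so levels near or under 3.52 were not separated from background. The arrays that agreed least with others of their own time were 0 h replicate 3 and 24 h replicate 5, with median correlations of 0.987 and 0.988 across probe sets. As a check of the islet label, all 6 measured beta cell genes, Ins2 and Iapp among them, were above the table's median at each time. Endothelial transcripts were present too, with Kdr, the main VEGF receptor, at 8.39 and Plvap, the protein of endothelial fenestrae, at 7.74 at 0 h (means, log2).

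Btnl9 had the largest measured difference of the 3 genes at 24 h. Its brighter probe set, 1436233_at, read 7.38, 7.72, 7.14, 7.71 and 8.01 at 0 h on replicates 1, 2, 3, 4 and 6 (log2). At 24 h it ran from 3.67 to 4.25 with a median of 3.84, and at 48 h from 2.99 to 3.98 with a median of 3.57. Every 24 h and 48 h array was below every 0 h array, and the arrays of the later times overlapped each other. The mean was 3.91 ± 0.21 (SD, n = 6) at 24 h against 7.59 ± 0.34 (SD, n = 5) at 0 h, a log2 difference of -3.68 ± 0.16 (SE) or 12.9-fold lower. At 48 h it was 3.54 ± 0.34 (SD, n = 6), a log2 difference of -4.06 ± 0.16 from 0 h or 16.6-fold lower, with 3 of the 6 arrays under the table's median. In bulk islets, fewer cells of a type and less RNA per cell cannot be told apart, for this gene and for those that follow.

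Within batches the Btnl9 difference between 24 h and 0 h ran from -4.21 to -3.28, lower in 5 of 5 batches. Between 48 h and 24 h it was -0.37 ± 0.16 (SE), lower in 5 of 6 batches, with batch values from -1.05 to 0.31. The exception was batch 4, where Btnl9 read 3.98 at 48 h and 3.67 at 24 h. At 24 h the difference was 90.8% of that seen at 48 h, with a range of 77.9 to 108% over the 5 batches that had all 3 times. The other probe set of Btnl9, 1439157_at, was under the table's median on all 17 arrays. It averaged 2.37 ± 0.11 at 24 h and 2.25 ± 0.14 at 48 h, against 2.90 ± 0.36 at 0 h, and the arrays of the times overlapped.

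Rgcc had a large difference by 24 h and a further one by 48 h. Its brighter probe set, 1438511_a_at, read 6.79, 6.63, 6.68, 7.45 and 6.32 at 0 h on replicates 1, 2, 3, 4 and 6 (log2). At 24 h it ran from 2.43 to 4.26 with a median of 4.04, and at 48 h from 2.29 to 3.07 with a median of 2.81. The arrays of both later times stayed below those of 0 h, and those of 24 h and 48 h overlapped because of 24 h replicate 5, which stood at 2.43 against 3.48 to 4.26 on the others. The mean was 3.73 ± 0.70 (SD, n = 6) at 24 h against 6.77 ± 0.42 (SD, n = 5) at 0 h, a log2 difference of -3.04 ± 0.27 (SE), or 8.24-fold lower, with 2 of the 24 h arrays under the table's median. Without 24 h replicate 5 the difference was -2.78. At 48 h all 6 arrays were under that median, and the mean of 2.74 ± 0.30 (SD, n = 6) was 16.4-fold below that at 0 h (-4.04 ± 0.27).

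At 48 h Rgcc was 1.99-fold lower than at 24 h (SE 0.26 on the log2 scale), and the 6 batch differences, all lower, ran from -1.60 to -0.14. The smallest step was in batch 5, whose 24 h array was already low. Without 24 h replicate 5 the log2 difference was -1.26. Of the 48 h difference from 0 h, 75.4% was present at 24 h (56.2 to 86.1% over 5 batches). The second probe set, 1418003_at, gave a smaller difference, with 3.97 ± 0.32 at 24 h and 3.51 ± 0.11 at 48 h against 5.22 ± 0.63 at 0 h. Its log2 differences from 0 h were -1.26 ± 0.21 and -1.71 ± 0.21 (SE), and it too had no overlap with 0 h at either time. The gap between 24 h and 0 h was only 0.04, as 24 h replicate 1 read 4.56 and 0 h replicate 1 read 4.61.

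The probe sets of Rgcc ordered the 0 h arrays differently. On 1418003_at replicates 6 and 3 were highest, at 6.08 and 5.70, and replicate 1 was lowest. On 1438511_a_at replicate 4 was highest and replicate 6 lowest, at 6.32. At 24 h replicate 5 was lowest on both. The 2 probe sets thus shared the direction of change with time, and not the ranking of the islet pools at 0 h.

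Cyyr1 was the most uniform of the 3 genes across arrays. Its brighter probe set, 1435701_at, read 7.24, 7.53, 7.78, 7.61 and 7.84 at 0 h on replicates 1, 2, 3, 4 and 6 (log2). At 24 h it ran from 5.10 to 5.57 with a median of 5.27, and at 48 h from 4.42 to 4.77 with a median of 4.69. The 3 times did not overlap at all, and all 17 arrays were above the table's median, unlike those of Btnl9 and Rgcc. The mean was 5.30 ± 0.17 (SD, n = 6) at 24 h against 7.60 ± 0.24 (SD, n = 5) at 0 h, a log2 difference of -2.30 ± 0.11 (SE) or 4.91-fold lower. It was 4.64 ± 0.14 (SD, n = 6) at 48 h, 7.80-fold below 0 h (-2.96 ± 0.11).

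From 24 h to 48 h Cyyr1 differed by -0.67 ± 0.10 (SE), 1.59-fold lower at 48 h, and its 6 batch differences, all lower, ran from -1.14 to -0.38. The gap between the lowest 24 h array and the highest 48 h array was 0.33. The share of the 48 h difference present at 24 h was 77.5%, and 66.5 to 87.5% over 5 batches. The other probe set, 1452019_at, was under the table's median on 16 of 17 arrays, with 3.21 ± 0.17 (SD) at 24 h and 3.17 ± 0.21 at 48 h against 3.50 ± 0.12 at 0 h. Its differences from 0 h were -0.28 ± 0.10 and -0.32 ± 0.10 (SE).

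**Figure D1:**
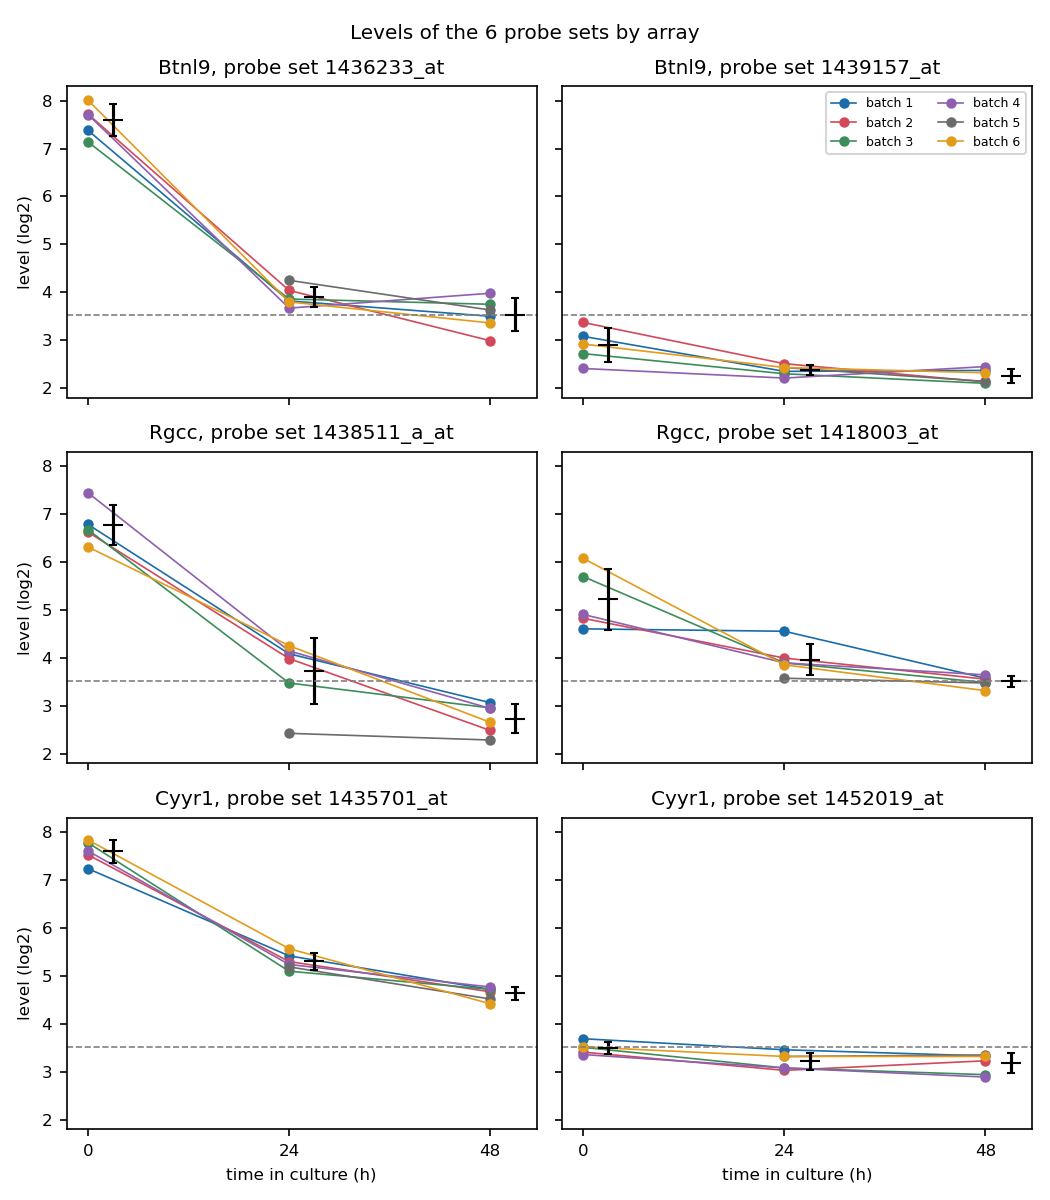
Log2 level (y axis) of the 6 probe sets against time in culture in hours (x axis), 1 panel per probe set. Coloured points joined by lines are arrays of 1 batch, black marks beside them the mean ± SD of the time, and the dashed line the table's median of 3.52. The brighter probe sets on the left are lower at 24 h than at 0 h in all 5 batches that have both times, while 1439157_at and 1452019_at on the right lie near or under the dashed line at all times.

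Over the 6 probe sets, 4 had all their 24 h arrays below all their 0 h arrays, and 5 had all their 48 h arrays below all their 0 h arrays. Among all probe sets 3.44% and 2.99% did so. The genes were chosen on these contrasts, so nothing is read from that excess. The 48 h arrays are shared with the contrast that chose the genes, and the differences between 48 h and 24 h are therefore given without a test as well. In that comparison 1 of the 6 probe sets, 1435701_at of Cyyr1, had no overlap, against 0.486% of all probe sets. By measured difference at 24 h, Btnl9, Rgcc and Cyyr1 ranked 2, 4 and 11 from the lowest among 18193 genes, and at 48 h they ranked 3, 4 and 10. Rank is by measured value, and values of genes near background are compressed.

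The genes whose levels followed these 3 most closely over the 17 arrays were mostly other genes with large drops. For Btnl9 they were Timp3, an inhibitor of metalloproteases (Pearson r = 0.984), Epas1, which encodes the hypoxia-inducible factor HIF-2alpha (0.980), Exoc3l2 (0.976), Cavin2, a caveolae coat gene (0.976), and Dlc1 (0.974). For Rgcc they were Cyyr1 itself (0.965), Plpp1, a phospholipid phosphatase gene (0.960), Adgrl4, an endothelial adhesion receptor gene (0.957), Lpcat1 (0.953) and the class II antigen gene H2-Eb1 (0.945). For Cyyr1 they were Plpp1 (0.983), the endothelial phosphatase receptor gene Ptprb (0.979), Adgrl4 (0.973), Btnl9 (0.973) and Plvap (0.971). Each was the highest among 12010 genes that were above the table's median at 0 h. The 17 arrays fall into 3 times, so these values largely reflect the common drop after 0 h.

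Once the mean of each time was subtracted, the 3 genes correlated weakly. Over the 17 deviations the Pearson r was -0.217 between Btnl9 and Rgcc, 0.156 between Btnl9 and Cyyr1 and 0.287 between Rgcc and Cyyr1. Without 24 h replicate 5 these values were 0.015, 0.225 and 0.240. The genes with the most similar deviations were Plat, the tissue plasminogen activator gene, for Btnl9 (r = 0.874), Pigu, a gene of GPI anchor attachment, for Rgcc (0.964), and the splicing factor gene Sf3b6 for Cyyr1 (0.861). Plat was higher after 0 h, with a log2 difference of 1.35 at 24 h, so likeness within a time and likeness over time gave different genes. Next came 1810058I24Rik, Fdft1, Plagl1 and Arpp19 for Btnl9 (0.815 to 0.702), Gpr135, Snord104, Dpy30 and Rnaseh2c for Rgcc (0.903 to 0.889), and Raph1, Fhit, Orc3 and Plekhh1 for Cyyr1 (0.858 to 0.847). These are the highest of 12010 values each and are given as a description. For each of the genes listed for Rgcc, r was lowest without 24 h replicate 5, the array on which Rgcc stood apart. It was then 0.939 for Pigu, 0.863 for Gpr135, 0.788 for Snord104, 0.783 for Dpy30 and 0.812 for Rnaseh2c.

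The variation between islet pools was not used to choose the genes and could be tested. Each gene was set against the mean of 30 endothelial receptor and junction genes within a time. Of these 30 genes, 22 were above the table's median. The mean also includes Pecam1, Cdh5 and Vwf, which were under it, and genes that rose, such as Ednrb, S1pr1 and Ecscr. It is therefore an imperfect measure of endothelium. At 48 h all 6 Rgcc arrays and 3 of the 6 Btnl9 arrays were under the table's median, so those relations rest on values not separated from background. At that time the Pearson r was 0.68 for Btnl9, 0.44 for Rgcc and 0.75 for Cyyr1 (n = 6 arrays), with two-sided exact permutation p of 0.136, 0.396 and 0.0861. The Spearman coefficient was 0.89, 0.31 and 0.77, with exact p of 0.0333, 0.564 and 0.103. At 24 h r was -0.27, -0.09 and -0.30 for Btnl9, Rgcc and Cyyr1 (exact permutation p = 0.604, 0.879 and 0.571), and the Spearman coefficient was -0.26, 0.09 and -0.37 (exact p = 0.658, 0.919 and 0.497). None of the 6 relations passed after Benjamini-Hochberg adjustment over the 6 (lowest adjusted exact p = 0.408 for r and 0.200 for the Spearman coefficient). Without the 2 arrays farthest from the median of the endothelial mean, r over the other 4 was 0.99, 0.48 and 0.37 at 48 h and -0.64, 0.29 and 0.50 at 24 h.

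Endothelial genes as a class fell in part, and with very unequal sizes. Of 61 measured genes in 5 endothelial lists, 25 fell and 6 rose at 24 h against 0 h (limma, adjusted p under 0.05), against 6.66% of all genes lower and 5.44% higher. At 48 h against 0 h, 31 fell and 3 rose, against 5.27% and 6.45% of all genes. The median log2 difference of the 61 genes was -0.16 at 24 h and -0.34 at 48 h, against -0.01 and -0.02 over all genes. The measured differences of Btnl9, Rgcc and Cyyr1 lay far below those medians, which is how they were chosen.

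Among receptors, 6 of 16 fell and 2 rose at 24 h, and 10 fell and 1 rose at 48 h. Counts of this and the other endothelial lists stand against 6.66% of all genes lower and 5.44% higher at 24 h, and 5.27% and 6.45% at 48 h. The share of receptors that rose at 48 h, 6.25%, was near that over all genes. Ptprb, a phosphatase that restrains the angiopoietin receptor, averaged 4.80 at 24 h and 4.33 at 48 h against 7.15 at 0 h, log2 differences of -2.34 ± 0.17 and -2.82 ± 0.17 (limma adjusted p = 3.08e-08 and 2.99e-09). Nrp1, a co-receptor for VEGF and semaphorins, fell by 1.69 and 2.23 on the log2 scale, and the VEGF receptor gene Flt1 by 1.44 and 1.90. Adgrl4 fell by 1.11 and 1.67 (SE 0.08 each). These values are of the brightest probe set of each gene. Over all probe sets of Ptprb and Flt1, the 24 h differences ran from -2.34 to 0.10 and from -1.44 to 0.19. For Nrp1 and Adgrl4 they ran from -2.05 to -0.21 and from -1.11 to -0.27. The calls of these genes were kept at both times when the probe sets of a gene were averaged. Ednrb, an endothelin receptor gene also expressed outside endothelium, rose by 1.65 ± 0.14 at 24 h and by 1.03 ± 0.14 at 48 h, and S1pr1, the receptor for sphingosine 1-phosphate, rose by 0.85 ± 0.17 at 24 h.

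Of 14 junction and surface genes, 6 fell and 2 rose at 24 h, and 7 fell and 0 rose at 48 h. Plvap differed by -1.94 and -2.63 (SE 0.17 each), and Clec14a, an endothelial lectin gene, by -1.76 and -1.81. Mmrn2, an endothelial matrix protein gene, fell by 0.77 and 1.42, and its 4 probe sets differed by -0.97 to -0.06 at 24 h. Cd34 fell by 1.07 and 1.12, and the sialomucin gene Emcn by 0.77 and 1.25. Ecscr and Cldn5, an endothelial signalling regulator and a tight junction gene, rose at 24 h by 1.01 ± 0.17 and 0.44 ± 0.08. Their 0 h means of 3.39 and 3.46 were under the table's median, and neither passed at 48 h (limma adjusted p = 0.0590 and 0.190). Pecam1, Cdh5 and Vwf, widely used endothelial markers, had means under the table's median at 0 h (3.08, 3.33 and 3.05) and could not serve as a measure of endothelium on these arrays.

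Of 6 caveolae genes, 5 fell at each time, by very unequal amounts. Cavin2 fell to 2.72 at 24 h and 2.64 at 48 h, against 6.64 at 0 h (log2 differences -3.92 ± 0.15 and -4.00 ± 0.15, both later means being under the table's median), and Cav1, the scaffold protein of caveolae, fell by 2.75 and 2.76. Cav2 fell by 1.89 and 1.98. Over all probe sets, the 24 h differences ran from -3.92 to 0.14 for Cavin2 and from -1.89 to -0.04 for Cav2. The calls of both were kept when their probe sets were averaged. Cavin1 fell by 0.79 and 0.65, calls lost when its probe sets were averaged (adjusted p = 0.155 and 0.0961).

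Capillary exchange genes share capillary marker lists with Btnl9 and Rgcc. Of 11 measured, 2 fell (18.2%) and 1 rose (9.09%) at 24 h, against 6.66% of all genes lower and 5.44% higher. At 48 h 3 fell (27.3%) and 1 rose (9.09%), against 5.27% and 6.45%. The list's median difference was -0.09 at both times. Of the 11 genes, 5 had a mean over all arrays under the table's median, where differences are compressed, so this median understates possible falls. Car4, a carbonic anhydrase gene, fell by 0.58 ± 0.11 and 0.70 ± 0.11. Gpihbp1, which carries lipoprotein lipase across capillaries, differed by -0.09 at 24 h and -0.18 at 48 h (adjusted p = 0.848 and 0.609). Fabp4, a fatty acid carrier gene, rose by 1.27 ± 0.13 at 24 h, and the fatty acid transporter gene Cd36 rose by 1.20 ± 0.18 at 48 h. The 4 Fabp4 probe sets differed by -0.03 to 1.27 at 24 h, and the 3 Cd36 probe sets by 0.05 to 1.35 at 48 h. Cd300lg was under the table's median at every time, and its call at 24 h (adjusted p = 0.0461) was lost in 12 of 17 fits that left out 1 array, with a highest p of 0.128 without 0 h replicate 3, and with the batch as a block. Cd93 differed by -0.54 at 48 h (adjusted p = 0.0246), a call lost with the batch as a block and in 6 of the 17 fits.

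Of 14 endothelial transcription factor genes, 6 fell and 1 rose at both times. The share that rose, 7.14%, was near that over all genes (5.44% at 24 h and 6.45% at 48 h). Epas1 fell by 2.30 ± 0.15 and 2.56 ± 0.15, Mef2c by 1.56 and 1.24, while Sox18 differed by -1.22 and -1.85. The 2 probe sets of Epas1 differed by -2.30 and 0.01 at 24 h, and its calls were kept when they were averaged. Klf2, a factor induced by blood flow, fell by 0.50 ± 0.08 and 0.39 ± 0.08, from a 0 h mean of 3.86 that was close to the table's median. Gata2 fell by 0.42 and 0.47, and its 24 h call was lost when its probe sets were averaged (adjusted p = 0.245). Sox17 rose by 1.31 ± 0.27 and 1.02 ± 0.27, from a 0 h mean of 3.09 under the median. Its 48 h call was lost in 3 of 17 fits that left out 1 array (adjusted p of up to 0.0650, on omitting 0 h replicate 1). The core motif of ETS factors is shown above. Of their genes, Erg, Fli1 and Ets1 differed by 0.31, 0.08 and 0.03 at 24 h and did not pass. At 48 h they differed by -0.01, 0.00 and -0.12 and did not pass either, and Fli1 was under the table's median at each time. Elk3, another ETS factor gene of the list, fell by 0.73 ± 0.17 at 24 h (limma adjusted p = 0.00891). It differed by -0.53 at 48 h (adjusted p = 0.0589).

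The endothelial genes also differed in how much of their 48 h difference was present at 24 h. That share was 99.4% for Cav1, 98.1% for Cavin2, 97.7% for Clec14a and 95.4% for Cav2 and Cd34. It was 89.6% for Epas1, 83.2% for Ptprb, 75.7% for Flt1 and Nrp1 and 73.9% for Plvap. It was lower for Adgrl4 (66.2%), Sox18 (65.9%), Emcn (61.6%) and Mmrn2 (54.6%). Btnl9, at 90.8%, stood beside Epas1 by this measure, and Rgcc and Cyyr1, at 75.4% and 77.5%, beside Flt1, Nrp1 and Plvap. Shares of genes that reached background by 24 h, such as Cavin2 and Clec14a, cannot show a later fall. Btnl9 averaged 3.91 at 24 h and 3.54 at 48 h, and Rgcc 3.73 and 2.74, near or under the table's median. Epas1 stood at 6.90 and 6.64. The shares of Btnl9 and Rgcc are thus limited by background, and their likeness to those of brighter genes need not be a shared course.

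**Figure D2:**
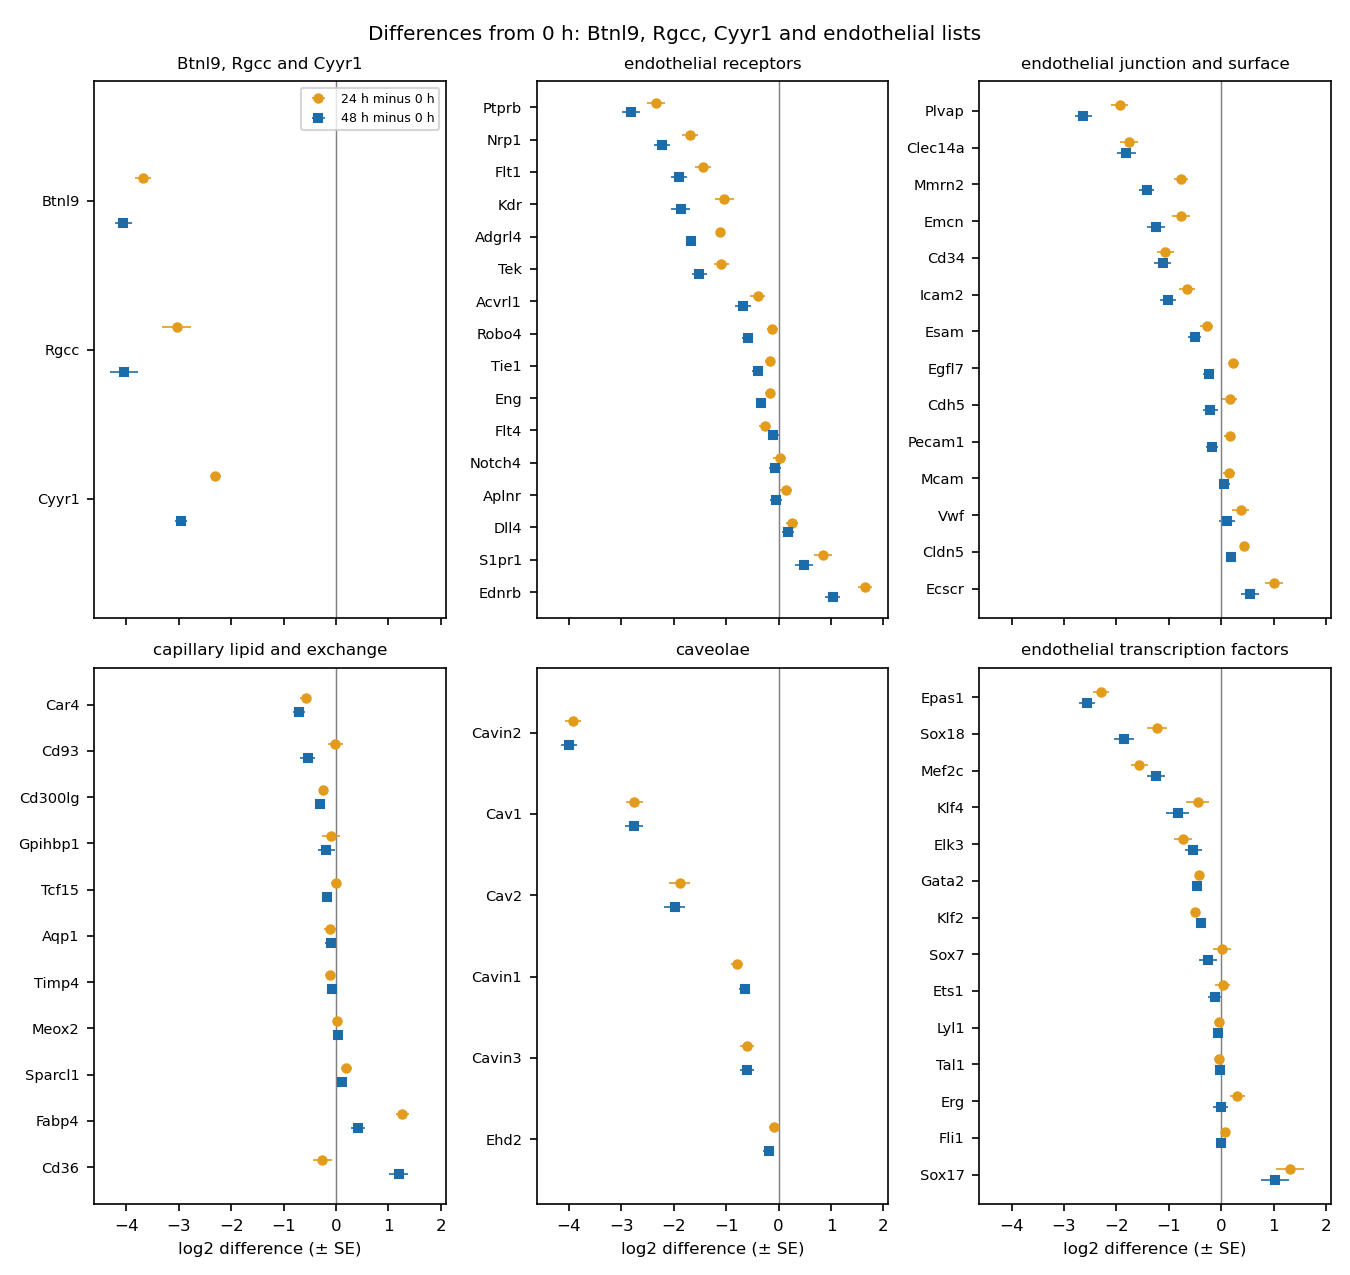
Log2 differences from 0 h (x axis, points with limma's SE) for Btnl9, Rgcc and Cyyr1 and for the genes of 5 endothelial lists (rows). Circles are 24 h minus 0 h and squares 48 h minus 0 h. Cavin2, at -3.92 and -4.00, lies farthest left among the list genes, while Ednrb, Sox17 and Fabp4 lie to the right of 0 at both times.

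Markers of mural cells, the pericytes and smooth muscle that wrap vessels, fell in part. Of 13 measured, 5 fell and 1 rose at each time. Over all genes 6.66% were lower and 5.44% higher at 24 h, and 5.27% and 6.45% at 48 h. The pericyte gene Rgs5 averaged 5.82 at 24 h and 5.77 at 48 h against 8.89 at 0 h (-3.07 ± 0.24 and -3.12 ± 0.24). Vtn fell by 1.10 and 1.03 and Notch3 by 0.67 and 0.54, while Kcnj8, a potassium channel gene of pericytes, rose by 1.34 ± 0.17 and 1.42 ± 0.17. Acta2, the smooth muscle actin, fell by 1.66 at 24 h and differed by -0.54 at 48 h (adjusted p = 0.0539, and 0.0369 with the batch as a block), and Tagln fell by 0.96 and 0.79. The summed linear signal of the list was 274 to 329 at 24 h and 321 to 452 at 48 h, against 642 to 999 at 0 h. Pdgfrb, Cspg4, Des and Abcc9 had means above the table's median at each time and did not pass. They differed by -0.06, -0.04, 0.09 and -0.29 at 24 h and by -0.08, 0.03, 0.02 and 0.28 at 48 h. A second probe set differed by -0.81 at 24 h for Pdgfrb and by -0.78 for Cspg4. The means of Ndufa4l2 were close to the table's median. The part of mural cells in the falls of Btnl9, Rgcc and Cyyr1 was not tested.

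Markers of other cells took other courses. Their counts stand against 6.66% of all genes lower and 5.44% higher at 24 h, and 5.27% and 6.45% at 48 h. Of 8 macrophage markers, 4 fell and 1 rose at 24 h, and 2 fell and 2 rose at 48 h. Csf1r fell by 1.58 ± 0.14 and 1.21 ± 0.14 and Adgre1 by 0.58 and 0.38, while Cd68 rose by 1.84 and 2.16. The call of Adgre1 at 48 h was lost with the batch as a block and in 6 of 17 fits that left out 1 array. Their summed signal was 256 to 360 at 24 h and 379 to 485 at 48 h, against 424 to 751 at 0 h. Of 8 fibroblast markers, 2 fell at 24 h and 3 rose at 48 h with 1 lower. The call of Col1a2 at 24 h was lost in 8 of 17 fits that left out 1 array. Col3a1 stood at 5.03 at 24 h and 7.85 at 48 h against 6.13 at 0 h, and the summed signal was 118 to 132 and 265 to 480 against 146 to 223. Of 5 lymphatic endothelial markers, 0 passed at either time by limma, and 1 had an unadjusted p under 0.05 at each (Lyve1 differed by -0.63 at 24 h, adjusted p = 0.150). Acinar markers, from digestive-enzyme cells, had 0 of 8 past limma's test at 24 h (1 at an unadjusted p under 0.05) and 5 lower at 48 h. Their summed signal ran from 146 to 2692 at 24 h and 116 to 732 at 48 h, against 558 to 5916 at 0 h. Of 6 beta cell markers 4 fell at 24 h and 3 at 48 h, among them Slc2a2 by 0.75 and 0.45. The call of Pdx1 at 24 h was lost in 12 of 17 fits that left out 1 array, and that of Ucn3 at 48 h in 10 of 17. The part of these cells in the falls was not tested.

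Of 12 measured butyrophilin and B7 genes, 0 fell and 0 rose in either comparison with 0 h by limma, and 2 had an unadjusted p under 0.05 in each. Over all genes 6.66% were lower and 5.44% higher at 24 h, and 5.27% and 6.45% at 48 h. At such shares few calls arise among 12 genes, and 9 of the 12 had a mean under the table's median. The count therefore does not show whether the family followed Btnl9. The nearest relatives with a probe set, Btn1a1, Btnl2 and Btnl10, were under the table's median at each time, where differences are compressed. Cd274, the ligand PD-L1, stood at 6.20 at 24 h and 5.76 at 48 h against 5.88 at 0 h (adjusted p = 0.161 and 0.686). Vsir and Cd276 were above the median, with differences of 0.06 and 0.12 for Vsir and of -0.17 and -0.14 for Cd276. Of 12 Shisa-like and WBP1 relatives of Cyyr1, 1 fell at 24 h (8.33%, against 6.66% of all genes) and 2 rose at 48 h (16.7%, against 6.45%). Shisa2 fell by 0.95 ± 0.19 at 24 h (adjusted p = 0.00333) and differed by -0.46 at 48 h. Wbp1l and Shisal2b rose at 48 h by 0.50 ± 0.13 and 0.62 ± 0.18 (adjusted p = 0.0172 and 0.0318). The call of Wbp1l was lost with the batch as a block (adjusted p = 0.0520), and that of Shisal2b in 8 of 17 fits that left out 1 array.

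Genes tied to the known roles of Rgcc moved in several directions. The shares over all genes were 6.66% lower and 5.44% higher at 24 h, and 5.27% and 6.45% at 48 h. Of 11 measured mitotic kinase and cyclin genes, 6 fell at 24 h and 5 at 48 h, with 0 higher. Cdk1, the kinase that the Rgcc protein binds, averaged 3.63 at 24 h and 3.46 at 48 h against 5.06 at 0 h (-1.43 ± 0.18 and -1.61 ± 0.18, adjusted p = 3.71e-05 and 1.42e-05). Cdc20, an activator of the anaphase-promoting complex, fell by 1.52 and 2.27, the cyclin gene Ccna2 by 1.32 and 1.16 and Ccnb2 by 0.64 and 0.60. Of 10 measured complement genes, 3 fell and 2 rose at 24 h, and 1 fell and 3 rose at 48 h. Serping1, the C1 inhibitor, rose by 2.02 ± 0.26 and 2.01 ± 0.26, and Cfb, complement factor B, by 2.26 ± 0.43 and 2.95 ± 0.43. Cd59a, which blocks the membrane attack complex, fell by 0.87 and 0.49. C1qa and C1qb, made by macrophages, fell at 24 h by 1.24 and 0.99, and the receptor gene C3ar1 rose by 0.38 at 48 h, a call lost in 5 of 17 fits that left out 1 array.

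Against the same shares over all genes (6.66% and 5.27% lower, 5.44% and 6.45% higher), 3 of 13 TGF-beta and HIF pathway genes fell (23.1%) and 0 rose at both times. They were Epas1, described above, the receptor gene Tgfbr2 (0.77 and 0.64 lower on the log2 scale, SE 0.12 each) and the ligand gene Tgfb3, whose mean was under the table's median at each time and whose 48 h call (adjusted p = 0.0412) was lost with the batch as a block and in 11 of 17 fits that left out 1 array. Hif1a, which encodes the other hypoxia-inducible subunit, stood at 8.51 at 24 h and 8.43 at 48 h against 8.43 at 0 h, and Vegfa, a target of both, at 7.45 and 7.32 against 7.08 (adjusted p = 0.275 and 0.500).

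The nearest measured genes on the chromosome, 3 on each side of each gene, were called at about the rate of all genes. Of these 18, 1 fell and 2 rose at both times, and 15 did not pass, against 6.66% lower and 5.44% higher over all genes at 24 h and 5.27% and 6.45% at 48 h. Beside Btnl9 on chromosome 11, the interferon-inducible GTPase gene Ifi47 fell by 0.79 ± 0.14 and 1.12 ± 0.14 (adjusted p = 0.00108 and 4.21e-05). On the other side Zfp62 and Mgat1 differed by 0.10 and -0.10 at 24 h and by 0.20 and 0.04 at 48 h. Around Rgcc on chromosome 14, the diacylglycerol kinase gene Dgkh rose by 0.51 ± 0.09 and 0.70 ± 0.09, and Vwa8 and Naa16, measured well above the median, did not pass. Around Cyyr1 on chromosome 16, the metalloprotease gene Adamts1 rose by 1.16 ± 0.14 and 0.83 ± 0.14 (adjusted p = 1.72e-05 and 0.000696), while App, the amyloid precursor gene, differed by -0.11 ± 0.07 and -0.07 ± 0.07 and Gabpa by -0.04 and -0.07. Irgm1 differed by 0.45 at 24 h (adjusted p = 0.0717), and passed with the batch as a block (0.54, adjusted p = 0.0129). Gm12185, 1700024J04Rik, Zfp957, Kbtbd7, Kbtbd6, Gm10791, Adamts5 and Gm32461 did not pass either, and 1700024J04Rik, Zfp957, Kbtbd6, Gm10791 and Gm32461 were under the table's median at each time.

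**Figure D3:**
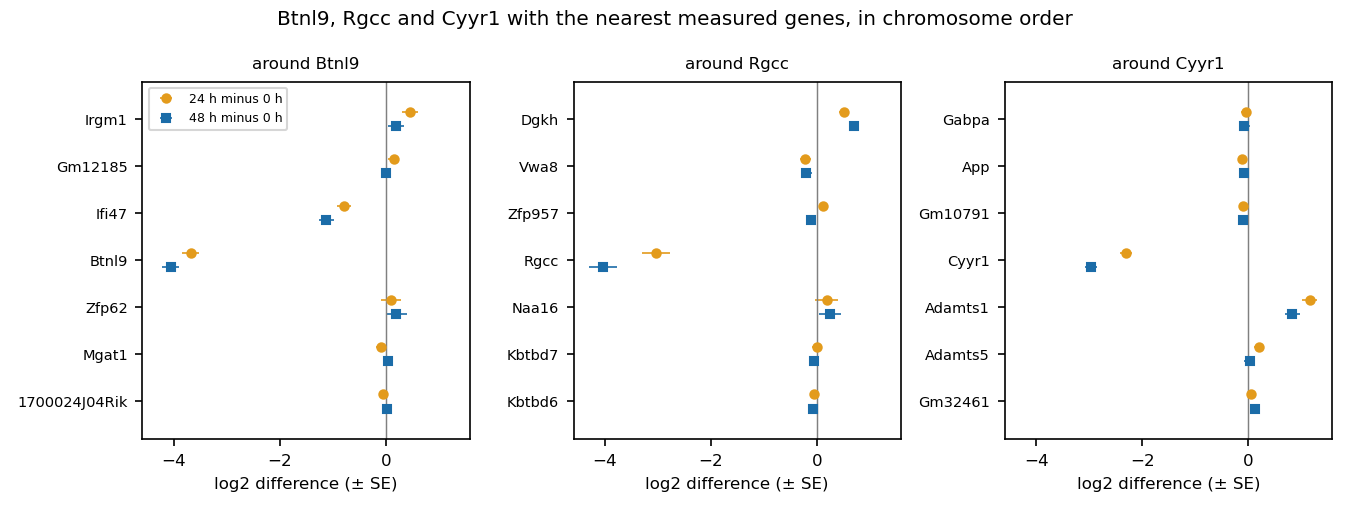
Log2 differences from 0 h (x axis, points with limma's SE) of Btnl9, Rgcc and Cyyr1 and of the 3 nearest measured genes on each side (rows, in chromosome order). Circles are 24 h minus 0 h and squares 48 h minus 0 h. Next to Cyyr1, at -2.30 and -2.96, Adamts1 lies at 1.16 and 0.83, and Ifi47 is the only neighbour that fell.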

How the data were processed

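Expression was measured on 17 one-colour Affymetrix arrays. The authors made the deposited log2 values by RMA, as named (without a version) in the submitters' processing notes. This method corrects background, equalises the distributions of the arrays and combines the probes of each probe set, which compresses differences of dim genes. That the logarithm has base 2 was judged from the range of values (1.55 to 13.81). The number of arrays limits the precision.

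Of 45101 probe sets, 64 controls were left out. The platform annotation gave 34945 of the other 45037 a single symbol, 932 several and 9160 none. A gene is represented by its probe set with the highest mean over all arrays. Dimmer probe sets of some genes, such as Ptprb, Epas1 and Tgfbr2, had differences near or above 0 at 24 h. limma (3.58.1, R 4.3.3) fitted 1 mean per time to all arrays, with Benjamini-Hochberg adjustment over all probe sets, and was tested on simulated data. Exact permutation tests used scipy 1.17.1. Batches come from the study's design text. Deviations of same-batch arrays correlated at a median of 0.00545 (16 pairs, above 0.1 in 4), and the batch block was an alternative.

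The genes, lists and motifs were chosen with earlier results of these data known, the motifs also with the promoter sequences in view. Named genes are, per list, direction and time, up to 4 passing genes with the smallest adjusted p, the neighbours, and the 5 most similar genes by each measure. Others were named after their values were seen. Promoter sequences are RefSeq's; the probe sequences were not used here.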

Additional observations from a re-analysis of the deposited data

Results flagged for a closer look

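In 69 groups of arrays, 1 array stood far from the others of its time in 3; about 1 in 20 would do so by chance, and no probe set of Btnl9, Rgcc or Cyyr1 was among them. The mean of the acinar markers was 6.11 for 48 h replicate 5, whereas the remaining 48 h arrays had 3.71 to 4.33. The mean of the endothelial transcription factors was 4.38 for 48 h replicate 6, and 4.53 to 4.62 elsewhere at 48 h. Probe sets 1435701_at of Cyyr1 and 1418003_at of Rgcc were also lowest on that array, at 4.42 and 3.32. The other probe sets of Btnl9, Rgcc and Cyyr1 were lowest on other 48 h arrays. The mean of the lymphatic markers was 4.77 for 24 h replicate 6, and 4.38 to 4.50 elsewhere at 24 h.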

How the results depend on the processing

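Values came near background for Btnl9 and Rgcc after 0 h, which limits their folds and their later course. The differences of the 6 probe sets stayed within 1 SD under the alternatives run (8 for the brighter probe set of each gene and for 1418003_at, 7 for 1439157_at and 1452019_at) and without each array, except that the small difference of 1452019_at of Cyyr1 between 48 h and 24 h (-0.04) ran from -0.08 to 0.02 without 1 array. With the batch as a replicate block the 5 endothelial lists held 25 lower genes at 24 h and 5 higher at 48 h against 0 h (5 too with a filter on level). Between 48 h and 24 h, 7 of their genes fell, 4 with complete batches and 2 to 9 without 1 array. Over all genes in that comparison, 60 fell and 78 rose, against 31 to 100 and 46 to 98 without 1 array, and 117 fell without 0 h replicate 3 and 24 h replicate 5 together, chosen after seeing the data. Within 24 h, r with the endothelial mean changed sign for Rgcc (0.01 with brighter list genes, 0.29 without 2 arrays) and Cyyr1 (0.50 without 2 arrays). Of 116 calls of named genes, 98 were kept in every setting.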
